A study of Mus musculus with 12 samples.

Results

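The haematopoietic niche factors described here are 8 genes with a known role in the marrow stroma that supports blood cells and their precursors. The genes are Cxcl12, Kitl, Angpt1, Il7, Lepr, Vegfa, Bmp4 and Foxc1. They were chosen by symbol for this known role, with earlier results of these data known, so their counts are a description. They make up 8 of 19938 genes measured, each by 1 row of the array table. Each was compared between 4 groups of B6 mice with 3 arrays per group, on RNA of whole marrow flushed from the long bones at day 16 of age. Nonirradiated mice were given vehicle or PTH, the parathyroid hormone, whose receptor is found on osteoblasts and other stromal cells, for 5 days, from day 11 to day 15. Irradiated mice received a sub-lethal dose in 2 fractions of 310 cGy at day 10 and then vehicle or PTH on the same days. The design asks what irradiation does to marrow expression and whether it alters the response to PTH.

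Expression is given on the log2 scale, and 3 arrays per group limit the precision. Nothing in the labels says that arrays of 1 group are separate mice, so a p-value here measures only the spread between arrays, which may be technical. By Xist and Y-linked genes, the female pattern was present in 0 of 3 nonirradiated vehicle arrays, 3 of 3 nonirradiated PTH arrays and 1 of 3 arrays in each irradiated group. The arrays of each irradiated group thus cannot all come from the same mouse, while arrays of 1 pattern within a group may. A narrower spread of values set 2 arrays apart: over all rows the interquartile range was 2.86 on nonirradiated vehicle replicate 3 and 2.875 on irradiated PTH replicate 3, where the other arrays had 3.13 to 3.247. A flush holds all marrow cells at once, so fewer cells of a type and less RNA per cell cannot be told apart.

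In the marrow, perivascular reticular cells that carry the leptin receptor are a main source of the chemokine CXCL12, which holds stem cells and B cell precursors in place through CXCR4. The same cells make stem cell factor (Kitl), the ligand of KIT, under the control of the transcription factor FOXC1. Angiopoietin-1 (Angpt1) signals through TIE2, interleukin-7 drives early B cell growth, VEGF-A acts on endothelium, and BMP4 is a secreted signal of the TGF-beta family. Angpt1 is also made by haematopoietic progenitors and megakaryocytes, and Vegfa by many cell types, so in whole marrow none of these levels belongs to reticular cells alone.

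Of the 8 genes, Angpt1 fell after irradiation, and no other member passed the test in any of the comparisons in the full model. In nonirradiated vehicle mice its level was 9.02, 8.59 and 8.68 in replicates 1 to 3, and in irradiated vehicle mice it was 8.19, 7.91 and 7.72. All 3 irradiated arrays lay below all 3 nonirradiated ones. The mean went from 8.76 ± 0.2268 to 7.94 ± 0.2373 (SD, n = 3), a log2 difference of -0.82 (SE 0.156, 95% interval -1.16 to -0.4801, adjusted p = 0.0165 by limma), or a fold of 0.566. The call ended without nonirradiated vehicle replicate 1 (-0.69, limma's adjusted p = 0.05114), irradiated vehicle replicate 2 (-0.80, adjusted p = 0.08018) or irradiated vehicle replicate 3 (-0.71, adjusted p = 0.08194), and held in the other 9 fits that left out 1 array. Among all genes, 1.01% were called lower in this comparison and 1.21% higher, against 1 and 0 of the 8 members.

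**Figure D1:**
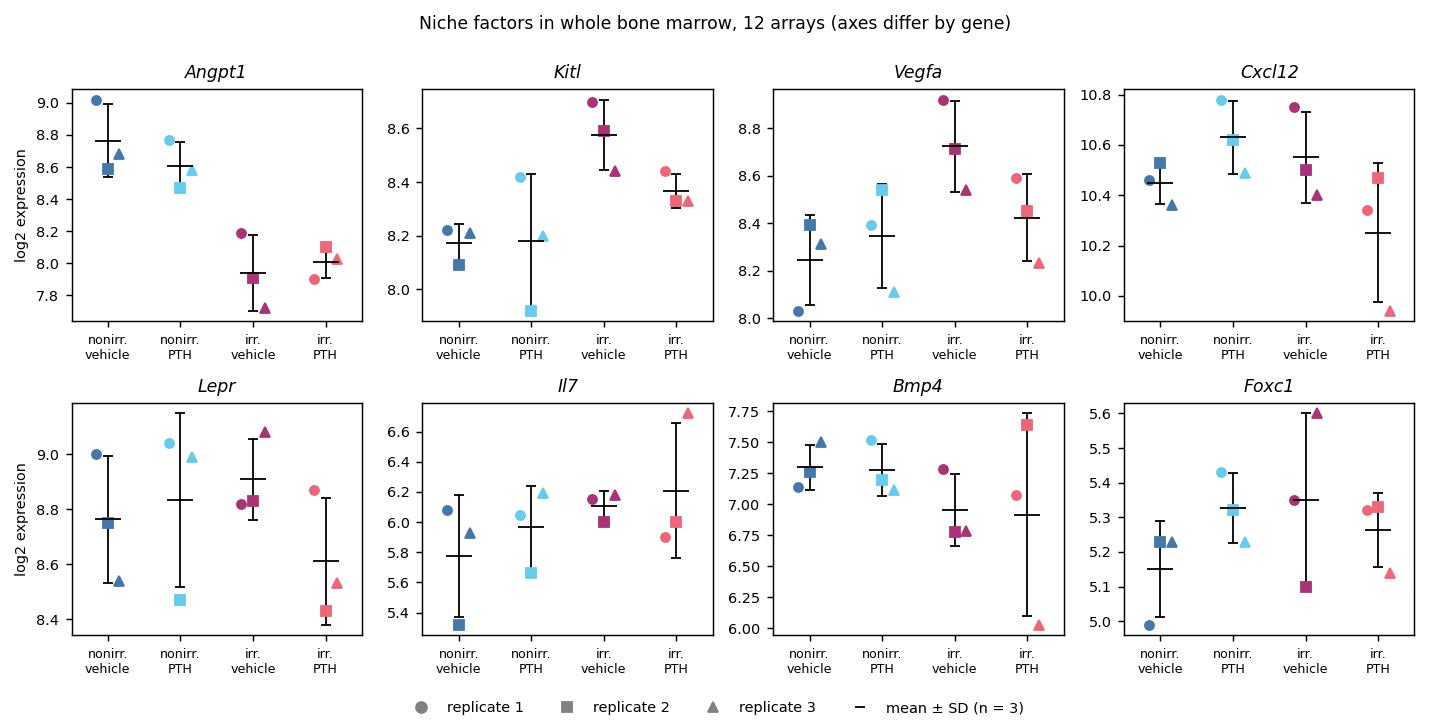
Log2 expression of the 8 niche genes on each of the 12 arrays, by group, with 1 point per array, shaped by replicate, and on axes that differ by gene, with the group mean ± SD (n = 3) as a line with error bars. Angpt1 lies between 7.72 and 8.19 on the 6 irradiated arrays and between 8.47 and 9.02 on the 6 nonirradiated ones, while the other genes overlap between irradiated and nonirradiated arrays.

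In mice given PTH, Angpt1 was at 8.77, 8.47 and 8.58 without irradiation and at 7.90, 8.10 and 8.03 with it. Here too the groups did not overlap, with means of 8.61 ± 0.1535 and 8.01 ± 0.09952 (SD, n = 3). The log2 difference was -0.59 (SE 0.156, 95% interval -0.9345 to -0.2543), and with limma's adjusted p = 0.07843 it did not pass. Weighting the arrays by their quality brought it past the threshold (limma's adjusted p = 0.00775), and a term for sex moved it to -0.52 (adjusted p = 0.4557). The irradiation difference averaged over both treatments was -0.71 (SE 0.1103, 95% interval -0.9478 to -0.4668, limma's adjusted p = 0.002073), and it passed in each of the 12 fits that left out 1 array and with the sex term (-0.69, adjusted p = 0.004806). In that average 3.59% of all genes were called lower and 2.51% higher. The test of whether the irradiation difference depended on PTH gave 0.23 for Angpt1 (limma's adjusted p = 0.7638).

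Stem cell factor and VEGF-A were higher in irradiated vehicle mice without passing the test. Kitl was at 8.22, 8.09 and 8.21 in nonirradiated vehicle mice and at 8.70, 8.59 and 8.44 in irradiated vehicle mice. Vegfa was at 8.03, 8.39 and 8.31 in the former and at 8.92, 8.71 and 8.54 in the latter. For both genes every irradiated vehicle array lay above every nonirradiated vehicle array. The log2 difference was 0.40 for Kitl (SE 0.1362, 95% interval 0.107 to 0.7007, limma's adjusted p = 0.188) and 0.48 for Vegfa (SE 0.1593, 95% interval 0.1321 to 0.8264, adjusted p = 0.1795). With Angpt1, 3 of 8 members had groups that did not overlap, as did 18.8% of all genes in this comparison.

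In mice given PTH neither gene passed. Kitl was at 8.42, 7.92 and 8.20 in nonirradiated PTH mice and at 8.44, 8.33 and 8.33 in irradiated PTH mice, a difference of 0.19 (limma's adjusted p = 0.5992). Vegfa was at 8.39, 8.54 and 8.11 and at 8.59, 8.45 and 8.23, a difference of 0.08 (limma's adjusted p = 0.8751). For each gene these groups overlapped. Averaged over both treatments, the irradiation difference was 0.29 for Kitl (SE 0.09631, limma's adjusted p = 0.11) and 0.28 for Vegfa (SE 0.1126, adjusted p = 0.2106). Kitl passed in that average where arrays were weighted (0.286, limma's adjusted p = 0.0468).

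Cxcl12 had the brightest row of the 8, a rank that reflects the probes as well as the RNA. It was at 10.46, 10.53 and 10.36 in nonirradiated vehicle mice and at 10.75, 10.50 and 10.40 in irradiated vehicle mice. These groups overlapped, and the difference was 0.10 (95% interval -0.2371 to 0.437, limma's adjusted p = 0.8336). In nonirradiated PTH mice it was at 10.78, 10.62 and 10.49, and in irradiated PTH mice at 10.34, 10.47 and 9.94. The 3 irradiated PTH arrays all lay below the 3 nonirradiated PTH arrays, with replicate 3 the lowest of the 12. The difference was -0.38 (SE 0.1546, 95% interval -0.7148 to -0.04062, limma's adjusted p = 0.3061), and without both narrow-range arrays it was -0.22 (adjusted p = 0.6789). With a term for sex it was -0.23 (limma's adjusted p = 0.9999). In PTH mice 2 of 8 members, Angpt1 and Cxcl12, had groups that did not overlap, against 19.8% of all genes, and 0 members were called where 1.74% of genes were called lower and 0.692% higher. At an unadjusted p under 0.05 by limma, 2 of the 8 members passed, as did 2678 of all genes.

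The remaining factors did not pass the test after irradiation. Lepr, the leptin receptor that marks reticular cells, was at 9.0, 8.75 and 8.54 in nonirradiated vehicle mice and at 8.82, 8.83 and 9.08 in irradiated vehicle mice. Its difference was 0.15 in vehicle mice (limma's adjusted p = 0.7904) and -0.22 in PTH mice (adjusted p = 0.6429). Il7 differed by 0.33 (limma's adjusted p = 0.6188) and 0.24 (adjusted p = 0.7102), and Foxc1 by 0.20 (adjusted p = 0.5969) and -0.06 (adjusted p = 0.8926). Both lay below the median gene mean of 6.479, with means between 5.78 and 6.21 for Il7 and between 5.15 and 5.35 for Foxc1, and low signal limits what can be told of them. Bmp4 differed by -0.35 in vehicle mice (95% interval -1.041 to 0.3508, limma's adjusted p = 0.7094) and by -0.37 in PTH mice (adjusted p = 0.6609). On irradiated PTH arrays Bmp4 ran from 6.03 in replicate 3 to 7.64 in replicate 2, and leaving out 1 array moved the PTH-mouse difference between -0.73 and 0.08.

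**Figure D2:**
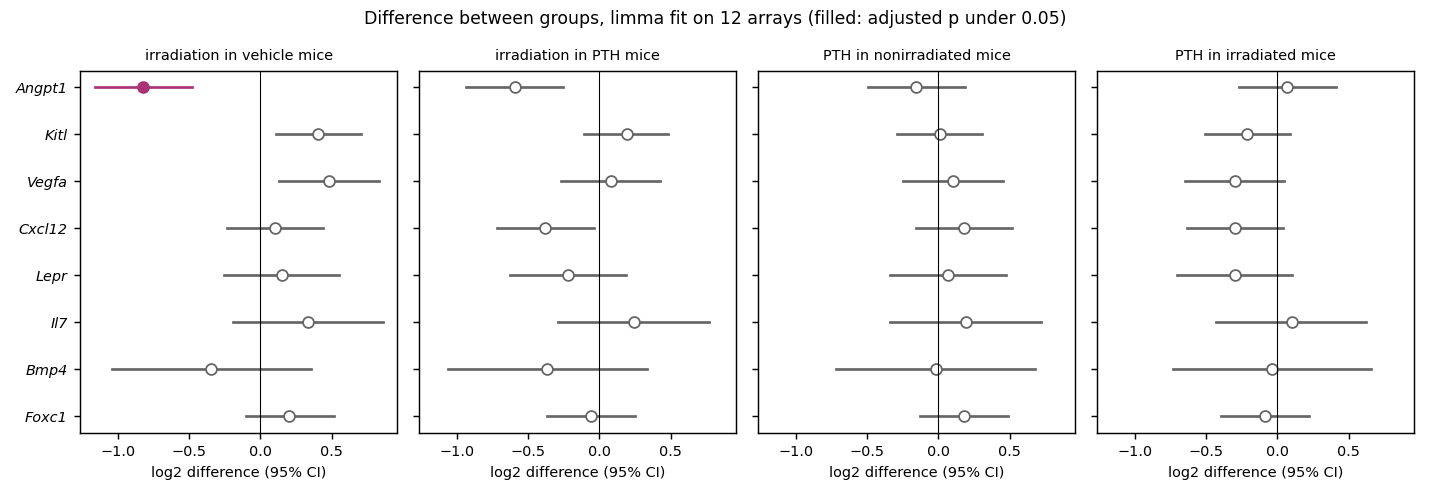
Log2 differences of the 8 niche genes for irradiation and for PTH, each in the 2 kinds of mice, with 95% intervals from the limma fit over 12 arrays and a line at 0; the filled point passed the test. The intervals of Angpt1 for irradiation lie below 0 in vehicle mice (-1.16 to -0.4801) and in PTH mice (-0.9345 to -0.2543), and every interval for PTH crosses 0.

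None of the 8 genes passed the test for PTH, and 0% of all genes did in either irradiation state, on average or in the interaction. At an unadjusted p under 0.05 by limma, 0 members passed for PTH in nonirradiated mice, where 356 genes did, and 0 in irradiated mice, where 759 did. In nonirradiated mice, Cxcl12 was higher with PTH by 0.18 (95% interval -0.1578 to 0.5163), Kitl by 0.01 (-0.2906 to 0.3032) and Foxc1 by 0.18, while Angpt1 differed by -0.16 (-0.4967 to 0.1835), all with limma's adjusted p = 0.9996. Foxc1 was the 1 member whose groups did not overlap there, against 6.84% of all genes. It was at 4.99, 5.23 and 5.23 with vehicle and at 5.43, 5.32 and 5.23 with PTH, so the lowest PTH array and the highest vehicle array print alike. The arrays compared were all of the male pattern with vehicle and all of the female pattern with PTH, so sex and treatment cannot be told apart in nonirradiated mice.

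In irradiated mice 6 of 8 members were lower with PTH and 2 were higher, against 47.77% of all genes lower. Cxcl12 differed by -0.30 (SE 0.1546, 95% interval -0.6355 to 0.03868), Vegfa by -0.30 (-0.6465 to 0.04783), Lepr by -0.30 (-0.7053 to 0.1051) and Kitl by -0.21 (-0.5088 to 0.08492). Lepr was at 8.87, 8.43 and 8.53 in irradiated PTH mice. Angpt1 differed by 0.07 (-0.2709 to 0.4094) and Bmp4 by -0.04 (-0.7344 to 0.6578), and limma's adjusted p was between 0.8439 and 0.9825 for the 8 genes. No member had groups that did not overlap, against 9.73% of all genes. Without irradiated PTH replicate 3 the Cxcl12 difference was -0.14 and that of Bmp4 was 0.41, and over all fits without 1 array Bmp4 ran from -0.40 to 0.41. The intervals of 6 of the 8 genes, all but Angpt1 and Foxc1, reach 0.5 or more on the log2 scale in at least 1 direction. For these 6 a difference of that size in that direction is not excluded. With arrays centred on housekeeping genes, which moved the median of all genes to 0.145 here, Bmp4 (0.0962) and Foxc1 (0.0477) changed sign, which leaves 4 of 8 members lower.

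For the interaction, which asks whether the irradiation difference changed with PTH, Cxcl12 had the smallest p of the 8 genes. Its value was -0.48 (SE 0.2187, unadjusted p = 0.04962, adjusted p = 0.732 by limma), and it was -0.26 with a term for sex and -0.28 without both narrow-range arrays. Vegfa had an interaction of -0.40 (limma's adjusted p = 0.732) and Lepr of -0.37, with the same sign as Cxcl12. With a term for sex these were -0.13 and -0.24, and with arrays centred on housekeeping genes, where the median of all genes moved to 0.241, they were -0.174 for Vegfa, -0.143 for Lepr and -0.251 for Cxcl12. At an unadjusted p under 0.05 by limma 1 of 8 members and 1094 of all genes passed.

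PTH acts through a receptor that raises cyclic AMP, and the factor CREB binds the cyclic AMP response element, whose half-site is TGACG. Promoter windows were matched for 6 of the 8 members, as the 250 bases before the start. Cxcl12 and Foxc1 are shown because both windows hold the half-site, Cxcl12 had the smallest interaction p, and Foxc1 had groups that did not overlap with PTH. Both come from the RefSeq promoter table on GRCm38.p6, plus strand, 5′ to 3′, with the half-site or its reverse complement in capitals: Cxcl12 at chr6:117168285-117168534 and Foxc1 at chr13:31806396-31806645.
Cxcl12: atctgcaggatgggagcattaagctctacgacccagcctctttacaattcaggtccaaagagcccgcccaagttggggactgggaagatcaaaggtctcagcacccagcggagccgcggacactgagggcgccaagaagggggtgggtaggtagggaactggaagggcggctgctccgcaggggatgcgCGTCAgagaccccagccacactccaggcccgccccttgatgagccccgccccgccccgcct
Foxc1: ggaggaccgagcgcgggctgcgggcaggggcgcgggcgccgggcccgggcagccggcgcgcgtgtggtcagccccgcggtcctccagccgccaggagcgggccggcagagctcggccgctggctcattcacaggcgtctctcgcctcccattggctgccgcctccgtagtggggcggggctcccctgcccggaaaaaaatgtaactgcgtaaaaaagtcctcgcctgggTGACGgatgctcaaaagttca
Searched on both strands, TGACG lies in 17.8% of all 32851 promoter windows in that table, so a match in some of the members is a description and no site of binding. It lies on the minus strand of Cxcl12, 61 bases before the start, and on the plus strand of Foxc1, 21 bases before it. A further window of Vegfa holds it 209 bases before the start, where it overlaps ACGTG, the core of the hypoxia response element. ACGTG lies in 16.6% of all windows and also in that of Bmp4. The promoter box CCAAT, in 33.8% of all windows, lies in those of Lepr, Foxc1 and Vegfa, and TATAAA, in 12.4%, in that of Kitl.

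Of the receptors through which blood cells receive these signals, Il7r, Cxcr4 and Kit fell after irradiation. Il7r, the interleukin-7 receptor of lymphoid precursors, was at 10.26, 9.89 and 9.86 in nonirradiated vehicle mice and at 7.65, 7.74 and 8.06 in irradiated vehicle mice. It fell by 2.19 (SE 0.197, limma's adjusted p = 0.0002977), and it fell by 2.58 in PTH mice (adjusted p = 0.0001015). Its ligand Il7 did not pass in either. Cxcr4, the receptor of CXCL12, was at 9.69, 9.64 and 9.81 in nonirradiated vehicle mice and at 9.12, 9.07 and 9.12 in irradiated vehicle mice. It fell by 0.61 (SE 0.1073, limma's adjusted p = 0.01096), and the call ended without irradiated vehicle replicate 2 (-0.59, adjusted p = 0.0605). In PTH mice Cxcr4 was at 9.66, 9.90 and 9.84 and at 9.05, 8.97 and 8.96, and it fell by 0.80 (limma's adjusted p = 0.002028) in 12 of 12 fits without 1 array.

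Kit, the receptor of stem cell factor on progenitors and mast cells, was at 9.14, 9.32 and 9.0 in nonirradiated PTH mice and at 8.05, 8.13 and 7.47 in irradiated PTH mice. In PTH mice it fell by 1.27 (SE 0.2312, limma's adjusted p = 0.01271), a call that ended without nonirradiated PTH replicate 1 (-1.28, adjusted p = 0.05575) or replicate 2 (-1.19, adjusted p = 0.06398) and with a term for sex (adjusted p = 0.1366). In vehicle mice it differed by -0.73 (limma's adjusted p = 0.1549), and averaged over treatments it fell (-1.0, adjusted p = 0.00279). Kitl, its ligand, was higher by 0.29 in that average without passing. The receptors on endothelium did not pass: Tek, which encodes the angiopoietin receptor TIE2, differed by 0.42 in vehicle mice (limma's adjusted p = 0.4244), and the VEGF receptors Flt1 and Kdr by 0.64 (adjusted p = 0.3068) and 0.30 (adjusted p = 0.7169). Bmpr1a and Bmpr2, which bind BMP4, differed by 0.26 and 0.08, Ackr3, a scavenger of CXCL12, by 0.18, and Lep, the ligand of the leptin receptor, by 0.50 (limma's adjusted p = 0.2977). Il2rg, a subunit of the interleukin-7 receptor, is not analysed here.

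**Figure D3:**
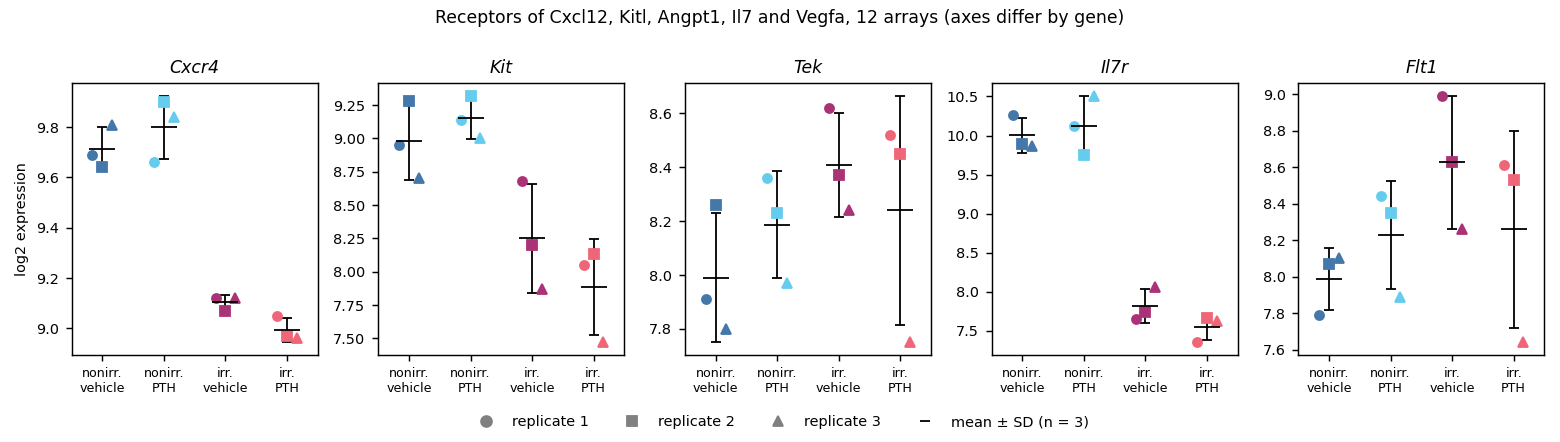
Log2 expression of the receptors Cxcr4, Kit, Tek, Il7r and Flt1 on each of the 12 arrays, by group, with 1 point per array and the group mean ± SD (n = 3) as a line with error bars, on axes that differ by gene. Il7r lies between 7.35 and 8.06 on irradiated arrays and between 9.75 and 10.51 on nonirradiated ones, while Tek and Flt1 overlap between them.

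Receptors, decoys and downstream genes of these factors were gathered in a list of 36, of which 35 were measured. In irradiated vehicle mice 2 of 35 were called higher and 3 lower, where 1.21% and 1.01% of all genes were. The median of the list was 0.18, beside -0.03 over all genes and 0.18 over the housekeeping genes. Dpp4, the peptidase that cuts CXCL12, fell by 1.42 (limma's adjusted p = 0.003814), beside Il7r and Cxcr4. Socs3, an inhibitor of cytokine signalling that is induced by STAT3, rose by 0.84 (limma's adjusted p = 0.03231), and Tgfbr3, a coreceptor of the TGF-beta family, by 0.73 (adjusted p = 0.0438). These last 2 calls held in 4 and 3 of the 12 fits without 1 array, and both ended with a term for sex (limma's adjusted p = 0.06066 for Socs3 and 0.07129 for Tgfbr3). In PTH mice 1 of 35 was called higher and 4 lower, where 0.692% and 1.74% of all genes were. Dpp4 fell by 1.48 (limma's adjusted p = 0.002714) and Socs3 rose by 0.91 (adjusted p = 0.01907, in 8 of the 12 fits). For PTH in irradiated mice 28 of 35 were lower, 0 of them called, with a median of -0.11, where 47.77% of all genes were lower. Without irradiated PTH replicate 3, 19 were lower with a median of -0.01. The smallest p among the listed genes there was that of Grem1, a BMP antagonist made by stromal cells, which differed by -0.68 (unadjusted p = 0.002447, limma's adjusted p = 0.8439).

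Of genes that mark reticular and other perivascular stroma, 39 of 40 listed were measured. In irradiated vehicle mice 2 were called higher and 1 lower, where 1.21% and 1.01% of all genes were. The median was 0.17, beside -0.03 over all genes and 0.18 over the housekeeping genes. Mcam, an adhesion molecule of perivascular cells, rose by 0.94 (limma's adjusted p = 0.007797) and Hp, which encodes haptoglobin, by 1.88 (adjusted p = 0.00446). In PTH mice Mcam (0.52, limma's adjusted p = 0.1317) and Hp (0.60, adjusted p = 0.3897) were not called. Ebf1, a transcription factor of reticular cells and of B cells, fell by 1.19 in vehicle mice (limma's adjusted p = 0.04691), a call that held in 4 of the 12 fits without 1 array. It fell by 1.53 in PTH mice (limma's adjusted p = 0.01192), a call that ended without nonirradiated PTH replicate 1 (-1.56, adjusted p = 0.05009) or replicate 2 (-1.48, adjusted p = 0.05702). With a term for sex the Ebf1 call ended in vehicle mice (limma's adjusted p = 0.05598) and in PTH mice (adjusted p = 0.1236). Lpl, which encodes lipoprotein lipase (0.93, limma's adjusted p = 0.0548), and Grem1 (0.73, adjusted p = 0.05897) came close to the threshold in vehicle mice. Ebf3, found in reticular cells, differed by 0.37 in vehicle mice and by 0.09 in PTH mice. As with Ebf3, known reticular genes named here after their values were seen, the stromal receptors Pdgfra (0.12 and -0.33) and Pdgfrb (0.74 and -0.14) and the adhesion molecule Vcam1 (0.22 and 0.04) were not called. In PTH mice Il6, a cytokine of stroma and macrophages, rose by 1.29 (limma's adjusted p = 0.01306), and the call ended without nonirradiated PTH replicate 1 (1.33, adjusted p = 0.05089) or replicate 2 (1.21, adjusted p = 0.06643) and with a term for sex (adjusted p = 0.1414). The median of the list was -0.13 there, with 25 of 39 lower, where 48.68% of all genes were lower and the housekeeping genes had a median of -0.11. Without irradiated PTH replicate 3, 21 of 39 were lower, with a median of -0.07.

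Markers of other cells in the flush are given beside the niche genes, and their part in those values was not tested. In irradiated vehicle mice 54.64% of all genes were lower and 1.01% were called lower. In irradiated PTH mice 48.68% of all genes were lower and 1.74% were called lower. The mean of 11 B-lineage genes was 9.24 to 9.44 in nonirradiated vehicle mice and 7.25 to 7.60 in irradiated vehicle mice. All 11 were lower, with a median of -1.78, and 9 were called. Those called were Ms4a1, which encodes CD20 (-4.33), the recombinase genes Rag1 (-2.42) and Rag2 (-1.69) and the B cell factor Pax5 (-2.09). The others were the B cell receptor chains Cd79b (-1.88) and Cd79a (-1.78) and the adaptor Blnk (-1.58), beside Il7r and Ebf1. In PTH mice all 11 were lower. Called there were these 9 and Igll1, a surrogate light chain of precursor B cells (-1.25, limma's adjusted p = 0.01876, in 9 of the 12 fits). Of 7 megakaryocyte genes, all 7 were lower in irradiated vehicle mice, with a median of -0.56, and 2 were called. These were Mmrn1, a platelet protein (-1.41, limma's adjusted p = 0.001684), and Clec1b, a platelet receptor (-0.99, adjusted p = 0.01046). The Clec1b call ended without irradiated vehicle replicate 3 (limma's adjusted p = 0.05041). The mean of that list was 9.02 to 9.30 in nonirradiated and 8.40 to 8.51 in irradiated vehicle mice, the same direction as Angpt1. In PTH mice all 7 were lower and 3 were called, Mmrn1 (-1.44), Clec1b (-1.10) and the platelet glycoprotein gene Gp9 (-0.76). The Gp9 call held in 3 of the 12 fits without 1 array and ended with a term for sex (limma's adjusted p = 0.1342), so 2 were then called. In a list of Ptprc, which encodes CD45 of white blood cells, and 7 neutrophil, monocyte and macrophage genes, Ptprc fell by 0.71 in vehicle mice (limma's adjusted p = 0.03918). That call held in 3 of the 12 fits and ended with a term for sex (limma's adjusted p = 0.0975), and 0 of the 8 were called in PTH mice. The mean of 9 stem and progenitor genes was 7.05 to 7.31 and 6.66 to 7.08, with 0 called in vehicle mice. Of that list, Meis1, a factor of stem cells, was at -0.63 in vehicle mice (limma's adjusted p = 0.1612). Kit and Meis1 (-1.01, limma's adjusted p = 0.02136) were called lower in PTH mice. The Meis1 call ended without irradiated PTH replicate 1 (-1.04, limma's adjusted p = 0.06289) or 3 (-0.80, adjusted p = 0.05216) or nonirradiated PTH replicate 1 (-0.96, adjusted p = 0.1029) or 2 (-0.93, adjusted p = 0.09917). With a term for sex 0 of the 9 were called.

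Adipocyte genes were higher in irradiated vehicle mice, as Kitl and Vegfa were. Of 9 measured, 8 were higher in irradiated vehicle mice and 5 were called, where 45.36% of all genes were higher and 1.21% called higher. The mean of the 9 was 7.38 to 7.53 in nonirradiated vehicle mice and 8.45 to 8.54 in irradiated vehicle mice. The lipid droplet genes Cidec and Plin1 rose by 2.33 (limma's adjusted p = 0.0005696) and 1.36 (adjusted p = 0.0003965), and Fabp4, a fatty acid carrier, by 1.41 (adjusted p = 0.0005161). Adipoq, which encodes adiponectin, rose by 1.70 (limma's adjusted p = 0.01229) and Lipe by 1.32 (adjusted p = 0.02827). Each call held in 8 of the 12 fits without 1 array, and the Lipe call ended with a term for sex (limma's adjusted p = 0.06253). The count called was thus 4 with that term and 3 to 5 without 1 array. In PTH mice all 9 were higher, where 51.32% of all genes were. Cidec (1.86), Fabp4 (1.28) and Plin1 (0.76) were called, where 0.692% of all genes were called higher. The mean there was 7.28 to 7.49 and 7.95 to 8.18. Of 11 endothelial genes, 0 were called in vehicle mice or in PTH mice, with medians of 0.40 and 0.13. Averaged over treatments 1 of the 11, Emcn, was called higher, where 2.51% of all genes were. That call ended in some fits without 1 array, as without irradiated PTH replicate 2 (0.75, limma's adjusted p = 0.0538). The smallest p in vehicle mice were those of Flt4 (1.01, limma's adjusted p = 0.08438) and Cdh5 (0.81, adjusted p = 0.1362). Of 12 genes of the response to low oxygen, to which Vegfa belongs by its known regulation, 11 were higher in vehicle mice, with a median of 0.23. In that comparison 9 of the 10 housekeeping genes were higher too, against 45.36% of all genes. The 1 called in vehicle mice was Bnip3 (0.97, limma's adjusted p = 0.03239, in 5 of the 12 fits). In PTH mice 6 of the 12 genes were higher and 6 lower, with a median of 0.06. Bnip3 was also called higher in PTH mice (1.04, limma's adjusted p = 0.02132, in 9 of the 12 fits), and with a term for sex both calls ended (adjusted p = 0.06183 and 0.1593). Of 7 osteoblast genes and of 9 genes of pericytes, smooth muscle and striated muscle, 0 were called, with medians of 0.11 and 0.01 in vehicle mice. Dmp1 (0.69) and Pth1r (0.23) had the smallest p of the former there, and Tagln (0.26) and Myh11 (-0.12) of the latter. The 10 housekeeping genes had a median of 0.18 in vehicle mice, where the 8 members had 0.18, and -0.13 for PTH in irradiated mice, where the members had -0.15.

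**Figure D4:**
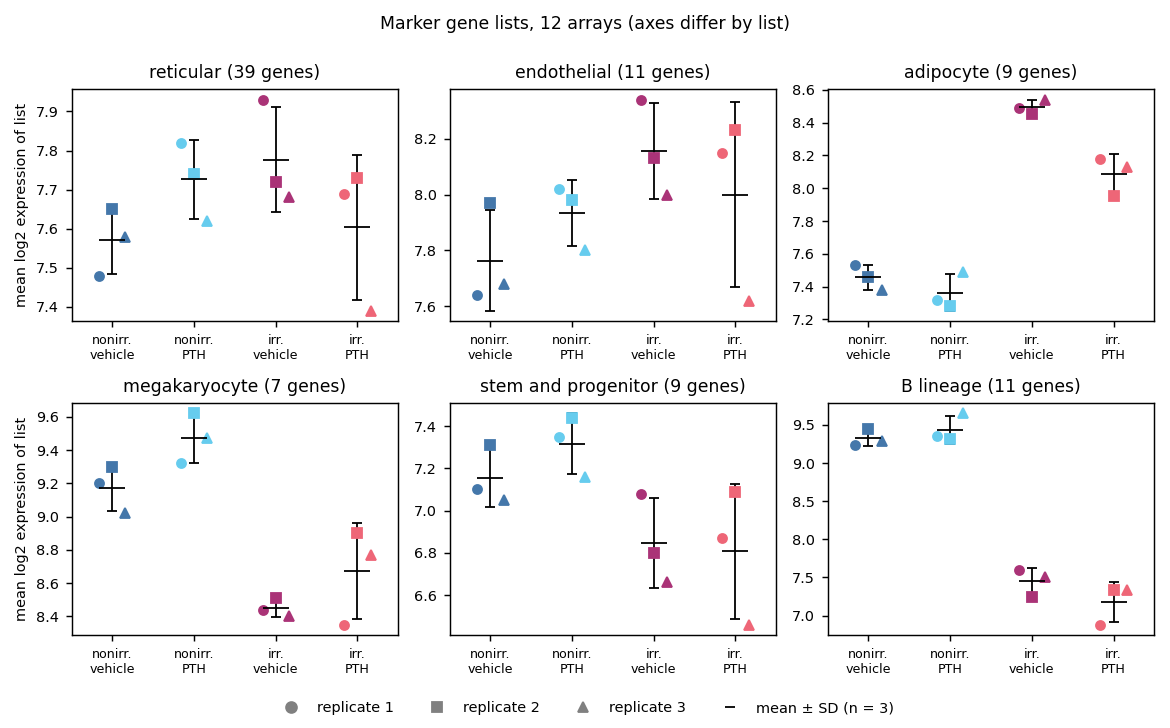
Mean log2 expression of 6 marker lists of marrow cell types on each of the 12 arrays, by group, with the group mean ± SD (n = 3) as a line with error bars, on axes that differ by list. The B-lineage mean lies between 6.88 and 7.60 on irradiated arrays and between 9.24 and 9.65 on nonirradiated ones, while the reticular mean lies between 7.39 and 7.93 and between 7.48 and 7.82.

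The 8 genes differed in how closely their arrays lay together within a group. Kitl had the smallest pooled within-group SD, 0.1494, with 23.96% of all genes below it, and Cxcl12 had 0.1853, with 41.18% below. Bmp4 had the largest, 0.4575, above 93.67% of genes, and Il7 was next at 0.3337, above 81.94%. Differences in Bmp4 and Il7 were thus measured with less precision than those in Kitl and Cxcl12.

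Array deviations from the group means were also set against each other for the 28 pairs of members, as a description over 12 arrays that share labelling and normalization. Pearson's r ran from -0.743 to 0.866 with a median of 0.224, and 19 of 28 were positive. Cxcl12 and Bmp4 had an r of 0.8664, and 0.6911 over the 11 arrays without irradiated PTH replicate 3. Cxcl12 and Vegfa had 0.654, and 0.5446 without that array. Kitl and Angpt1 had 0.6521 in deviations, although they differed in opposite directions after irradiation and had an r of -0.5222 over all 12 values. Il7 ran against Vegfa, with an r of -0.7426.

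Genes whose pattern over the 12 arrays was most like that of a member were taken from 9565 genes at or above the median mean, by Pearson's r of the values. For Angpt1 they were Plcb4, a phospholipase C (0.9683), Peli1, a ubiquitin ligase of immune signalling (0.9668), and Ric8b (0.9627). For Vegfa they were Lipe, hormone-sensitive lipase (0.9591), Ppard, a nuclear receptor of fatty acids (0.9532), and Stab1, a scavenger receptor of sinusoids and macrophages (0.9446). For Kitl they were Chpt1, an enzyme of phosphatidylcholine synthesis (0.9232), the protocadherin Pcdh9 (0.9148) and Lpl, lipoprotein lipase (0.9119). For Cxcl12 they were Dmap1 (0.9708), Tmem245 (0.9546) and Fmo5 (0.9546), and for Bmp4 Ccser2 (0.9382), Mia3 (0.9284) and the protease Adamts9 (0.9213). The closest genes of Il7, Thyn1 (0.8935), Tmed5 (0.8868) and Mrpl39 (0.8752), and of Lepr, Dcaf1 (0.8641), Gdap10 (0.8587) and Tmem208 (0.8361), were less alike, and Foxc1 had Sema7a (0.8579), Smarce1 (0.7898) and Pcolce2 (0.7456). All these r values were picked as the highest over only 12 arrays and include differences between groups, so they are a description.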

How the data were processed

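Total RNA of whole marrow flush was measured on 12 arrays. Values deposited by the authors are log2, as judged from their range and from RMA, named with affy and limma in the submitters' processing notes without roles. Whether all arrays were normalized together, and the genome build, are not given in the sources used here. Of 35556 rows, 21789 had 1 gene symbol in the platform annotation, and the row with the highest mean was kept for each of 19938 genes. With limma 3.58.1 (R 4.3.3), 4 group means were fitted over all arrays, with 8 residual degrees of freedom and empirical Bayes moderation. A gene was called where its p, adjusted over all genes by Benjamini-Hochberg, was under 0.05. The contrasts were irradiation and PTH in each state, their averages and the interaction. An exact permutation test of 3 against 3 cannot go below p = 0.10, so none was used. The genes named are the 8 members, their receptors, the 3 genes likest each member, and, in each list and irradiation comparison described, the genes that passed or, mostly in vehicle mice, the 2 with the smallest p where none did. Other list genes were named after their values were seen. The members and lists were chosen with earlier results of these data known. The fit was tested on simulated data. Alternatives were array weights, other scalings and variance models, a filter on dim genes, other rows per gene, a sex term, the replicate block and fits without single arrays. No label says that a shared replicate number pairs arrays, and 7 of 12 arrays correlated best with their own number.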

Additional observations from a re-analysis of the deposited data

How the results depend on the processing

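Over 1306 alternative values of the members, 1300 kept their call or stayed uncalled, 4 lost a call, 2 gained one and 0 reversed a call. Most member values were uncalled from the start, and an uncalled value counted as kept even where its sign changed. The sign changed in 11 of 23 alternatives for the Bmp4 interaction, and in 7 of 24 each for Kitl and Lepr with PTH in nonirradiated mice. The 4 lost calls were all of Angpt1 in vehicle mice, which had 24 alternatives. In irradiated vehicle mice the count of members called, 1 as reported, was 0 where only the groups compared entered the fit (Angpt1, limma's adjusted p = 0.0671), and 0 to 1 over the fits that left out 1 array. Array weights gave 1 member called in irradiated PTH mice in place of 0, and 2 in the average over treatments in place of 1. With the replicate block, Angpt1 was at -0.82 in vehicle mice (limma's adjusted p = 0.014) and had an adjusted p of 0.053 in PTH mice, and 1 and 0 members were called, as without it. The labels state no pairing, and the arrays were not treated as paired: same-number correlations of deviations ran from -0.65 to 0.596 (median 0.178) and others from -0.597 to 0.627 (median -0.0846). Centring arrays on housekeeping genes moved the median of all genes to -0.188 in irradiated vehicle mice, and Angpt1 to -0.982 (limma's adjusted p = 0.0099), Kitl to 0.242 (adjusted p = 0.444) and Vegfa to 0.317 (adjusted p = 0.322). Counts of all genes called were 442 in irradiated vehicle mice and 1149 with array weights, and 485 in irradiated PTH mice against 1148 with array weights, 200 with a sex term and 232 with only the groups compared. With 3 arrays per group, low signal limits Il7 and Foxc1, whose means lay below the median gene mean.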
